A study of Sus scrofa with 12 samples.

Results

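The cardiac myosin heavy and light chains were examined in the hearts of 6 pigs after a myocardial infarction. The members were chosen by name, as a list of 10 genes: the heavy chains MYH6, MYH7, MYH7B and MYH10, the light chains MYL2, MYL3, MYL4, MYL7 and MYL9, and the cardiac myosin light chain kinase MYLK3. Of these, 7 could be matched by symbol to an identifier among the 35682 genes counted. MYH7, MYH10 and MYL7 had no identifier in the symbol table used and were not analysed here. All of the 7 matched members passed the filter on low counts.

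RNA was sequenced from 12 libraries, with a border zone and a remote zone library for each of animals 1022, 1322, 1323, 1623, 1922 and 3622. All 6 were Yorkshire pigs, 10 to 12 weeks old when a balloon closed the left anterior descending coronary artery for 60 min and was then released. From day 9 each was immunosuppressed with 0.75 mg/kg of tacrolimus, 500 mg of mycophenolate mofetil and 20 mg of prednisolone a day, and all had a thoracotomy on day 14, when they received either vascular organoids of human endothelial progenitor and smooth muscle cells, laid over the infarct and the border zone around it and held by fibrin glue, or the glue alone. Hearts were taken 4 weeks later. The border zone was the tissue next to the infarct and the remote zone came from the posterior wall, both at mid-ventricular level. Which animals received organoids was not used here, so each zone holds treated and control animals together, and the border zone of treated animals lay under the graft. The remote zone is tissue of the same infarcted, immunosuppressed hearts and is not healthy myocardium.

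Myosin is the motor of the sarcomere. Each molecule joins a pair of heavy chains, which split ATP and pull on actin, with essential and regulatory light chains, which stiffen and tune the lever arm. The heart chooses among isoforms: alpha heavy chain (MYH6) is the faster form and beta heavy chain (MYH7) the slower, while MYL2 and MYL3 are the regulatory and essential light chains of the ventricle and MYL7 and MYL4 their counterparts in the atrium. MYLK3 phosphorylates the regulatory light chain of the ventricle. Isoform shifts in these genes are a long-known feature of the developing and the overloaded heart.

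The heavy chain genes lie close enough in sequence to bear on how reads could be assigned. On Sscrofa11.1 in the RefSeq annotation, no gene carried the symbol MYH6 in the table used, so MYH6 (ENSSSCG00000002029) was matched by product name to the gene annotated as myosin-6, at chr7:75677666-75704486 on the forward strand. MYH7 lies just before it at chr7:75650841-75672908 on the same strand. The MYH6 position, length and coding sequence used here are those of the myosin-6 gene. Their coding sequences were 92.3% identical over 5806 aligned bases. Of the 5749 windows of 150 bases in the MYH6 coding sequence, the length of 1 sequenced read, 17.6% occurred letter for letter in MYH7. The longest shared run was 567 bases, from base 5224 to base 5790 of the MYH6 coding sequence, and its first 150 bases are shown, since a read from them could come from either gene:
MYH6 and MYH7: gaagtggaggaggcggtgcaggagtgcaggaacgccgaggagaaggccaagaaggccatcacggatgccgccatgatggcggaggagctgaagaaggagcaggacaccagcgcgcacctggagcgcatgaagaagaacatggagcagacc
The counting options for such reads were not given in the sources used here, so the MYH6 counts are uncertain to that extent. No window of 150 bases of MYH6 occurred in MYH7B, nor any of MYL3 in MYL4 or of MYL2 in MYL9, where the coding sequences were 72.6%, 78.8% and 63.9% identical.

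The ventricular light chain genes MYL2 and MYL3, whose levels were the most alike among the members, are shown by the 250 bases before their RefSeq starts, read 5′ to 3′ on the strand of the gene, with matches to the motifs searched in capitals. MYL2 (ENSSSCG00000039710) lies at chr14:32205953-32213848 and MYL3 (ENSSSCG00000011325) at chr13:29730271-29735616, both on the reverse strand.
MYL2, chr14:32213849-32214098: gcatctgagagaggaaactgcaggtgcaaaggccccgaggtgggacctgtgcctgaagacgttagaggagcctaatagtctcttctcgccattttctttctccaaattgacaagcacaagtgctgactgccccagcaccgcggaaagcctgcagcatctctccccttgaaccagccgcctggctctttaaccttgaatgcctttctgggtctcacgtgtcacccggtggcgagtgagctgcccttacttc
MYL3, chr13:29735617-29735866: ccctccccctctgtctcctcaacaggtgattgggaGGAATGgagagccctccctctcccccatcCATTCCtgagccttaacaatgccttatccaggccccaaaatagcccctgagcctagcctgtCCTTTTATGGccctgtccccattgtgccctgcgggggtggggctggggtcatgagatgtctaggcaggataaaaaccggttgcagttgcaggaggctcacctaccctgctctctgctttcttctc
The motifs searched, on both strands, were the TATA box as TATAAA, the M-CAT element as CATTCC and the GATA element as AGATAA. The CArG box and the MEF2 site were searched as well. The MYL3 window held CATTCC at -215 to -210 on the opposite strand and at -186 to -181, and a CArG box at -125 to -116, counted from the start. The MYL2 window held none of these letters. Over 19572 windows of the same kind, 10.3% held CATTCC, 1.31% a CArG box, 9.76% TATAAA, 8.08% AGATAA and 2.55% a MEF2 site.

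The border zone libraries held 15130210 to 30526110 counts and the remote zone libraries 20091415 to 31618680. Both zones held libraries that stood apart. In the remote zone these were animals 3622 and 1322, with the lowest TMM factors of the 12 (0.67 and 0.81) and a chi-square per gene of 305 to 345 (3622) and 162 to 198 (1322) against the other 4 remote zone libraries, which differed among themselves by 28.2 to 68.2. In the border zone they were animals 3622 and 1022. The border zone library of animal 3622 had the lowest total and yet 28024 genes with a count, against 16932 to 20148 in the other 11. That of animal 1022 had a summed level of 10 fibroblast genes of 60983 CPM (the count over the TMM-normalised library size), against 3132 to 11473 in the other border zone libraries and 1103 to 2783 in the remote zone. Its 13 measured cardiomyocyte genes (TNNT2, TNNI3, ACTC1 and others) summed to 16479 CPM, against 56256 to 95301 in the other 11 libraries. Of 8 atrial markers, BMP10 and MYBPHL stayed at or under 0.306 CPM in every library, and the other 6 were detected in all 12, from SLN at 0.145 to 4.10 CPM up to PAM at 391 to 1086 CPM. In bulk tissue, fewer cells of a type and less RNA per cell cannot be told apart. Values of the members without animal 1022, 3622 or another animal are given, as single values or as ranges, where they moved by over 1.5 times.

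Between the zones, 0 of the 7 members passed an adjusted p of 0.05 over all genes tested by edgeR's quasi-likelihood test, where 287 of 13844 genes (2.07%) did, nearly all of them higher in the border zone (2.06% higher, 0.0144% lower). The count was 41 with the animal as a block, and in edgeR without the block it was 0 without animal 1623 or 3622, 3 without animal 1323 and 15 without animal 1922. The split was less one-sided among the 1724 genes that the DESeq2 Wald test called (1415 higher and 309 lower), and among the 856 that edgeR called with the animal as a block and without animal 1022 (569 higher and 287 lower). At an unadjusted p under 0.05 in the same edgeR test there were 2 members, MYL3 and MYL4, where 24.7% of all genes passed. The CPM ranges of the zones overlapped for every member, while they were separate for 2.69% of all genes. The median log2 fold change of the members was -0.29, with 2 above and 5 under 0, beside a median of 0.04 over all genes. In sum, the 7 members took a lower CPM in the border zone of 6 of 6 animals, between 5057 and 24845 CPM against 20206 and 37930 CPM in the remote zone. MYL2 and MYL3 held most of this sum, with border zone medians of 8293 and 5100 CPM beside a median sum of 16632 CPM. The 13 cardiomyocyte genes, none of them a member, were likewise lower in sum in 6 of 6 animals.

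**Figure D1:**
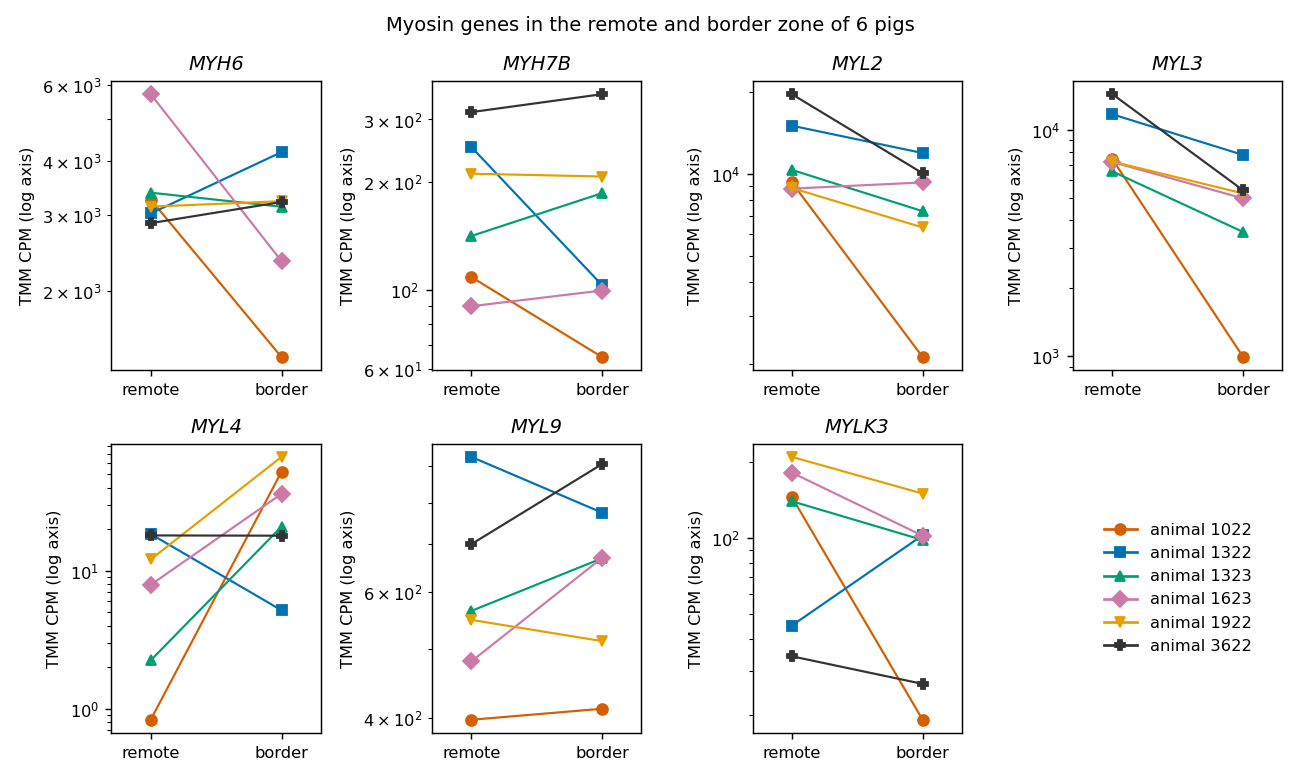
TMM-scaled CPM (log axis) of each measured member in the remote zone (left) and the border zone (right), 1 line for each of 6 animals. MYL3 sits lower in the border zone of 6 of 6 animals, MYL4 higher in 4 of 6, and animal 1022 has the lowest border zone level of MYH6, MYH7B, MYL2, MYL3, MYL9 and MYLK3.

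MYH6, the alpha heavy chain, was abundant in both zones, with 1403 to 4198 CPM in the border zone (median 3175) against 2871 to 5723 CPM in the remote zone (median 3197). The medians were nearly equal, and 10 of the 12 libraries lay between 2344 and 4198 CPM. The exceptions were the border zone of animal 1022, at 1403 CPM, and the remote zone of animal 1623, at 5723 CPM. The border zone was lower in 3 of 6 animals, with a log2 fold change of -0.29 (SE 0.28, edgeR adjusted p = 0.551), a sign that turned to 0.21 when libraries were scaled to the cardiomyocyte genes. With library totals in place of TMM the MYH6 value was -0.08, and without animals 1022, 1322 and 1623 in turn it was -0.17, -0.47 and -0.04. MYH7B (ENSSSCG00000007288, chr17:38362158-38385680, forward strand), a slow tonic-type heavy chain of muscle, ranged from 64.7 to 353 CPM in the border zone (median 145) and from 89.9 to 315 CPM in the remote zone (median 176). Animal 3622 was the highest in both zones, at 353 and 315 CPM. The border zone was lower in 3 of 6 animals, with a log2 fold change of -0.14 (SE 0.41, edgeR adjusted p = 0.865), and the sign turned to 0.21 with library totals and to 0.47 with scaling to the cardiomyocyte genes. Without animals 1022, 1322, 1323 and 3622 in turn the MYH7B value was -0.09, 0.05, -0.30 and -0.29.

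MYL2, the regulatory light chain of the ventricle, was the member with the highest median level per length in both zones. Per length it lay above MYL3 in 5 of 6 border zone and 4 of 6 remote zone libraries. It ranged from 2114 to 11932 CPM in the border zone (median 8293) and from 8822 to 19659 CPM in the remote zone (median 9819). The highest values were in the remote zone of animals 3622 (19659 CPM) and 1322 (15045 CPM), and the lowest in the border zone of animal 1022. The border zone was lower in 5 of 6 animals, all but 1623, as were 25% of all genes in at least 5. The log2 fold change was -0.61 (SE 0.38, edgeR adjusted p = 0.322). It was -0.30 with library totals and -0.13 with scaling to the cardiomyocyte genes.

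MYL3, the essential light chain of the ventricle, was lower in the border zone of every animal, as were 11.1% of the genes tested. It ranged from 992 to 7728 CPM in the border zone (median 5100) and from 6538 to 14333 CPM in the remote zone (median 7307). In animals 1322, 1323, 1623 and 1922 the differences were within -0.89 and -0.47 on the log2 scale, in animal 3622 the difference was -1.41 and in animal 1022 it was -2.90. The log2 fold change was -0.97 (SE 0.40), with an edgeR adjusted p = 0.162, and -1.10 with adjusted p = 0.107 when the animal was a block in edgeR. Without animal 1022 the edgeR values were -0.81 and adjusted p = 0.185, and without animal 3622 they were -0.85 and 0.340. With scaling to the cardiomyocyte genes the MYL3 value was -0.53 (edgeR adjusted p = 0.0669, and 0.139 with the block). So the direction held in each animal while the call did not pass the threshold.

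MYL4 (ENSSSCG00000017307, chr12:16774655-16792213, reverse strand), the essential light chain of the atrium and of the embryonic ventricle, was the member with the largest difference and the largest spread. It had 5.16 to 66.7 CPM in the border zone (median 28.4) and 0.831 to 18.4 CPM in the remote zone (median 9.98). The low end rests on few reads, since the remote zone library of animal 1022 held 21 counts of MYL4 and that of animal 1323 held 68. Animal 1022 went from 0.831 CPM in the remote zone to 52.1 CPM in the border zone, animal 1323 from 2.24 to 20.8, animal 1623 from 7.90 to 36.0 and animal 1922 from 12.1 to 66.7. Animal 3622 had 18.0 and 17.9 CPM, and animal 1322 went the other way, from 18.4 to 5.16 CPM. The log2 fold change was 1.75 (SE 0.69, edgeR adjusted p = 0.146), 1.97 with the animal as a block (edgeR adjusted p = 0.192, where 0.296% of all genes passed) and 1.33 without animal 1022 (edgeR adjusted p = 0.303). Scaling to the cardiomyocyte genes gave 2.94 with an edgeR adjusted p = 0.0477, which moved the median of all genes to 0.84 and passed 9.09% of all genes, and this was the only setting run in which a member passed. With that scaling and the animal as a block the value was 2.38 (edgeR adjusted p = 0.150), in a fit that called 11 of 13844 genes.

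Of the 8 atrial markers, 6 were tested and 1 was called. SLN, which encodes the sarcoplasmic calcium pump regulator sarcolipin, had 1.62 to 4.10 CPM in the border zone against 0.145 to 1.27 CPM in the remote zone, and rose by 2.36 on the log2 scale (SE 0.46, edgeR adjusted p = 0.0276, and 0.0410 with the block). Without animals 1323, 1623, 1922 and 3622 in turn its edgeR adjusted p was 0.118, 0.117, 0.0841 and 0.0513, at log2 fold changes of 2.18 to 2.64. With the block and DESeq2 size factors the edgeR adjusted p of SLN was 0.0525, and with at least 10 counts required in every library SLN was not tested. NPPA, the atrial natriuretic peptide gene that stressed ventricle also expresses, had 14.7 to 317 CPM in the border zone against 3.33 to 73.9 CPM in the remote zone, with a log2 fold change of 2.09 (SE 0.75, edgeR adjusted p = 0.123). Of the others tested, NR2F2 (0.96) and PAM (0.31) had values above 0 and KCNA5 (-0.72) and KCNJ3 (-0.19) under 0, with KCNA5 lower in 6 of 6 border zones. The list had 4 values above and 2 under 0, with a median of 0.64, and its summed level was higher in 5 of 6 border zones, at 707 to 1526 CPM against 507 to 1039 CPM. PAM made up most of that sum, with a border zone median of 688 CPM beside 907 CPM for the sum. The part of atrial-type gene activity in the MYL4 values was not tested.

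MYL9 (ENSSSCG00000036402, chr17:39788165-39795240, forward strand), the regulatory light chain of smooth muscle and non-muscle myosin, had zone ranges that nearly coincided. It ranged from 412 to 907 CPM in the border zone (median 670) and from 398 to 928 CPM in the remote zone (median 557). It was higher in 4 of 6 border zones, as it was in at least 4 for 44.4% of all genes, with a log2 fold change of 0.12 (SE 0.25, edgeR adjusted p = 0.794). The size of this MYL9 value depended on the scaling, at 0.44 with library totals (edgeR adjusted p = 0.186), 0.81 with the cardiomyocyte genes (edgeR adjusted p = 0.0604, and 0.140 with the block) and 0.08 with DESeq2 size factors. Without animals 1322, 1323, 1623 and 3622 in turn it was 0.21, 0.04, 0.06 and 0.04. Of the 9 smooth muscle genes measured, 8 had a higher value and SMTN a lower one, and 0 called, and the median log2 fold change was 1.54. Their sum was 3320 CPM in the border zone of animal 1022, 782 to 1165 CPM in the other border zone libraries and 531 to 849 CPM in the remote zone. MYL9 itself was lowest in animal 1022 in both zones.

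MYLK3 (ENSSSCG00000036874, chr6:37850117-37920862, forward strand), the kinase of the ventricular regulatory light chain, ranged from 19.2 to 150 CPM in the border zone (median 100.2) and from 34.2 to 209 CPM in the remote zone (median 142). It was lower in the border zone of 5 of 6 animals, all but 1322. Animal 3622 was low in both zones, at 26.6 and 34.2 CPM, and the remote zone of animal 1322 was low at 45.1 CPM. The log2 fold change was -0.60 (SE 0.53, edgeR adjusted p = 0.504), and -0.34 without animal 1022. Scaling to the cardiomyocyte genes gave -0.26, and -0.06 with the block.

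Levels can be set beside each other between genes only per length. With CPM divided by the RefSeq exon length in kb, the border zone medians were 8985 for MYL2, 6930 for MYL3, 527 for MYL9, 497 for MYH6, 18.9 for MYL4, 17.6 for MYLK3 and 13.4 for MYH7B. In the remote zone they were 10639 for MYL2, 9928 for MYL3, 500 for MYH6, 438 for MYL9, 25.1 for MYLK3, 16.4 for MYH7B and 6.63 for MYL4. The ventricular light chains thus lay above MYH6 and MYL9, and these above MYL4, MYLK3 and MYH7B, with no overlap of ranges between these levels in either zone. Within each level the ranges of neighbours overlapped. MYL4 was the fifth in the border zone and the last in the remote zone.

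Ratios of counts within a library do not depend on scaling, and give the balance of the isoforms. Of 9 ratios listed, 5 needed MYH7, MYH10 or MYL7 and were not computed. The other 4, and a further 2 added after the identifiers were matched (MYH6/MYL2 and MYH7B/MYH6), were compared within animals by a two-sided exact permutation test of sign changes, whose smallest p with 6 animals is 0.03125. None of the 6 passed 0.05 after Benjamini-Hochberg adjustment over the 6. A ratio at the smallest p could not pass it unless most of the 6 reached that p, so this outcome says little.

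**Figure D2:**
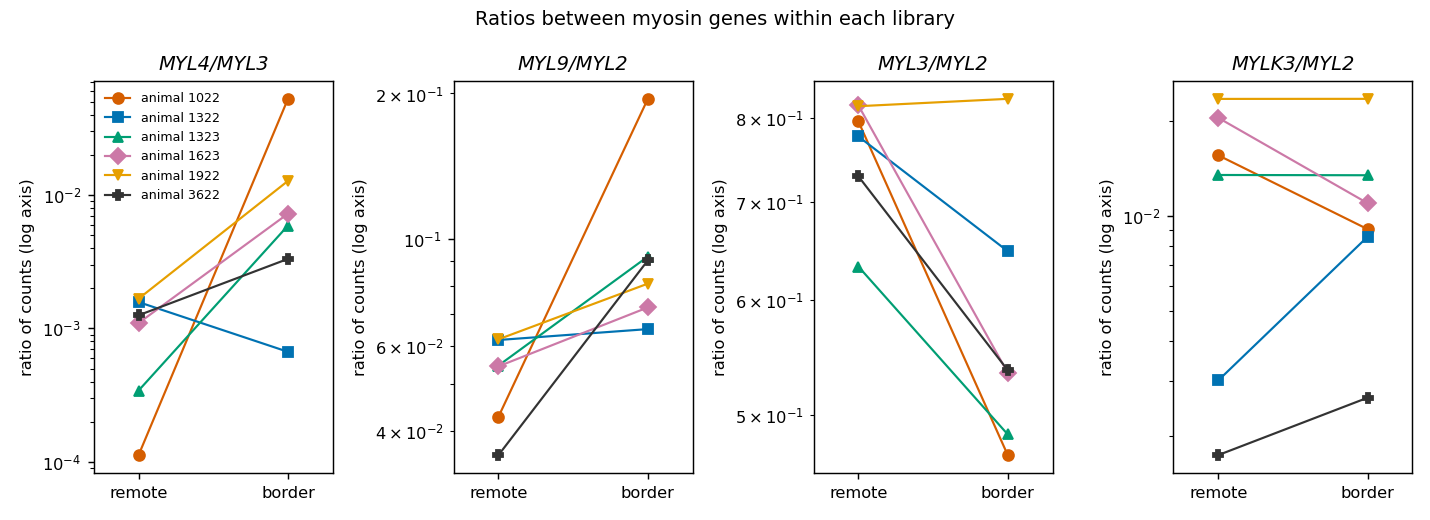
Ratio of the counts of 2 members (log axis) in the remote and the border zone library of each of 6 animals. MYL9/MYL2 is higher in 6 of 6 border zones and the ranges are separate, MYL3/MYL2 is lower in 5 of 6, MYL4/MYL3 is higher in 5 of 6, and MYLK3/MYL2 goes up in 2, goes down in 2 and is level in animals 1323 and 1922.

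The ratio of the essential to the regulatory ventricular light chain, MYL3/MYL2, was 0.469 to 0.824 in the border zone (median 0.536) against 0.632 to 0.816 in the remote zone (median 0.786). It was lower in 5 of 6 border zones, by -0.26 to -0.76 on the log2 scale, and level in animal 1922 (0.02). The mean difference was -0.41 ± 0.27 (SD, n = 6; exact permutation p = 0.0625, adjusted p = 0.125), or 1.33-fold lower. Of all other genes set over MYL2 in the same way, 1.1% were lower in at least 5 of 6 animals. Without animal 1022 the mean was -0.34.

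The ratio MYL9/MYL2, the smooth muscle over the ventricular regulatory light chain, was 0.0650 to 0.195 in the border zone (median 0.0855) against 0.0356 to 0.0619 in the remote zone (median 0.0545). The ranges did not overlap, with the border zone higher in 6 of 6 pigs, from 0.07 in animal 1322 up to 2.19 in animal 1022. The mean log2 difference was 0.86 ± 0.78 (SD, n = 6; exact permutation p = 0.03125, adjusted p = 0.125), or 1.81-fold. Without animal 1022 it was 0.59. Of all other genes over MYL2, 29.7% were higher in all 6 animals, and for 2.2% the border range lay above the remote range.

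The ratio MYL4/MYL3, the atrial over the ventricular essential light chain, was 0.000668 to 0.0525 in the border zone (median 0.00657) against 0.000112 to 0.00167 in the remote zone (median 0.00118). The ventricular form thus kept the larger count in every library, by a wide margin. The ratio was higher in 5 of 6 border zones and lower in animal 1322, with a mean log2 difference of 3.12 ± 3.34 (SD, n = 6; exact permutation p = 0.0625, adjusted p = 0.125), or 8.72-fold. Without animal 1022, whose remote zone holds the 21 counts, the mean log2 difference was 1.98, and without animal 1322 it was 4.0. Against MYL3, 93.2% of all other genes were higher in at least 5 of 6 animals, so this direction is shared by most genes.

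The other 3 ratios, like MYL4/MYL3, had means smaller than their spread over animals. MYLK3/MYL2, the kinase over its substrate, was 0.00265 to 0.0236 in border zone libraries and 0.00174 to 0.0236 in those of the remote zone, with a mean log2 difference of 0.07 ± 0.90 (SD, n = 6; exact permutation p = 0.96875). MYH6/MYL2 was 0.252 to 0.664 against 0.146 to 0.649 in the remote zone, higher in 5 of 6 animals, as were 71.9% of all other genes over MYL2 in at least 5, with a mean of 0.40 ± 0.91 (SD, n = 6; exact permutation p = 0.34375). Without animal 1623 the MYH6/MYL2 mean was 0.76 (exact permutation p = 0.0625, the smallest that 5 animals allow), and without animal 3622 it was 0.26. MYH7B/MYH6 was 0.0245 to 0.110 and 0.0157 to 0.110, with a mean of 0.10 ± 1.06 (SD, n = 6; exact permutation p = 0.71875). With 1 animal left out the MYH7B/MYH6 mean lay between -0.17 without animal 1623 and 0.47 without animal 1322, and the MYLK3/MYL2 mean between -0.22 without animal 1322 and 0.27 without animal 1623.

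Each member was also set against the mean log2 CPM of the 13 cardiomyocyte genes in the same library. That mean was lower in 5 of 6 border zones, by -0.55 ± 0.80 (SD, n = 6) on the log2 scale, with -2.14 in animal 1022 and 0.12 in animal 1322. Relative to it, MYL3 was still lower in the border zone of 6 of 6 pigs, by -0.19 to -0.93, with a mean of -0.58 ± 0.27 (SD, n = 6; exact permutation p = 0.03125, unadjusted, the smallest that 6 animals allow). On this scale 0.997% of all genes tested were lower in all 6 animals, 26% reached a p under 0.05 in either direction and the median over all genes was 0.60. Without animal 1022 the mean for MYL3 was -0.54. Relative to the troponins alone it was -0.19 (exact permutation p = 0.03125), lower in all 6 animals as were 0.101% of all genes, and relative to the median in place of the mean of the 13 genes it was -0.79. Some genes of the reference list had values of like size that did not pass the threshold either, with TMM log2 fold changes of -1.10 for TNNI3, -0.83 for CKM and -0.82 for TNNC1, each lower in 6 of 6 border zones, beside -0.97 for MYL3.

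**Figure D3:**
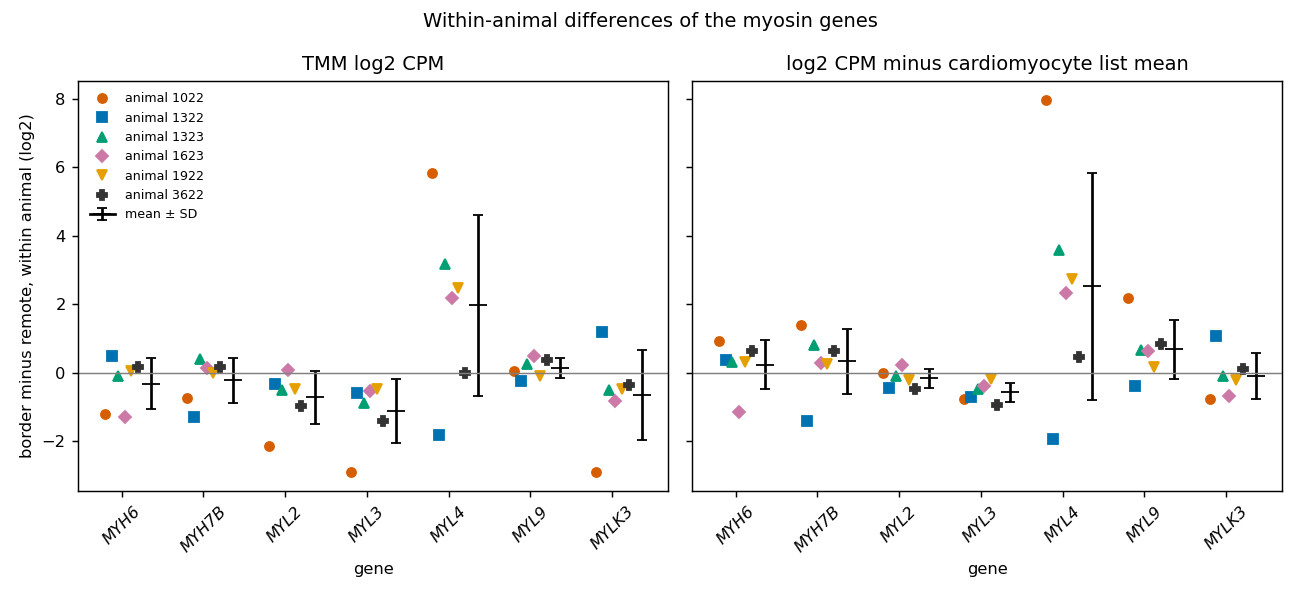
Border minus remote difference on the log2 scale in each of 6 animals for each measured member, as TMM log2 CPM (left) and relative to the mean of 13 cardiomyocyte genes in the same library (right), with the mean ± SD over animals as black bars. The MYL2 and MYL3 points draw together on the right, where MYL3 is under 0 in 6 of 6 animals, and MYL4 keeps the widest spread.

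For each of the other 6 members the mean difference from the cardiomyocyte genes was smaller than its SD over animals. MYL2 differed by -0.17 ± 0.27 (SD, n = 6; exact permutation p = 0.21875) and MYLK3 by -0.10 ± 0.66 (SD, n = 6; exact permutation p = 0.8125). Against the median of the 13 genes these were -0.39 for MYL2 (exact permutation p = 0.09375) and -0.31 for MYLK3, and against the troponins alone 0.21 and 0.29. With 1 animal left out MYL2 lay between -0.25 and -0.11, the latter without animal 3622, and MYLK3 between -0.33 without animal 1322 and 0.04 without animal 1022. The heavy chains had means between 0 and the median of 0.60 over all genes, with 0.23 ± 0.72 for MYH6 and 0.33 ± 0.95 for MYH7B (SD, n = 6; exact permutation p = 0.4375 for each), both higher in 5 of 6 animals, as were 60.7% of all genes in at least 5. Without animal 1022 they were 0.09 and 0.12, without animal 1623 MYH6 was 0.51, without animal 3622 MYH6 was 0.15, and without animal 1322 MYH7B was 0.68 (exact permutation p = 0.0625 for the values of 0.51 and 0.68, the smallest that 5 animals allow). Against the median of the 13 genes they were 0.02 and 0.11, and against the troponins alone 0.62 and 0.71. MYL4 was higher by 2.52 ± 3.32 and MYL9 by 0.69 ± 0.86 (SD, n = 6; exact permutation p = 0.09375 for each), both in all animals but 1322. Without animal 1022 these means were 1.43 for MYL4 and 0.38 for MYL9, and against the median of the 13 genes 2.31 and 0.47. Relative to the troponins alone, MYL9 was 1.07 higher (exact permutation p = 0.03125), in all 6 animals, as were 58.4% of all genes on that scale.

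MYL2 and MYL3 are short transcripts, while MYLK3, MYH6 and MYH7B are long ones, with 5.68, 6.40 and 10.8 kb of exon. The level of short against long genes was set beside these members. This score, added after the values were seen, is the mean centred log2 CPM of genes with up to 2.74 kb of exon minus that of genes over 5.24 kb, over 10883 genes without the members. The border zone libraries scored from -0.43 to 0.06 and the remote zone libraries from -0.12 to 0.68, with the border zone lower in each animal, by -0.30 ± 0.23 (SD, n = 6). The highest scores were those of the remote zone of animals 3622 (0.68) and 1322 (0.52), which also had the highest MYL2 and MYL3, while their MYLK3 was low at 34.2 and 45.1 CPM. The lowest score, -0.43, was that of the border zone of animal 1022, which had the lowest MYL2 and MYL3 and also the lowest MYLK3, at 19.2 CPM. So MYLK3 was low at both ends of the score. In the remote zone of animals 3622 and 1322 MYH7B had 315 and 251 CPM, the highest of that zone. MYH6 had 2871 and 3023 CPM there, the lowest of that zone. In the border zone of animal 1022 both were at their lowest, at 64.7 CPM for MYH7B and 1403 CPM for MYH6. The part of this shift in the values of the members was not tested.

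**Figure D4:**
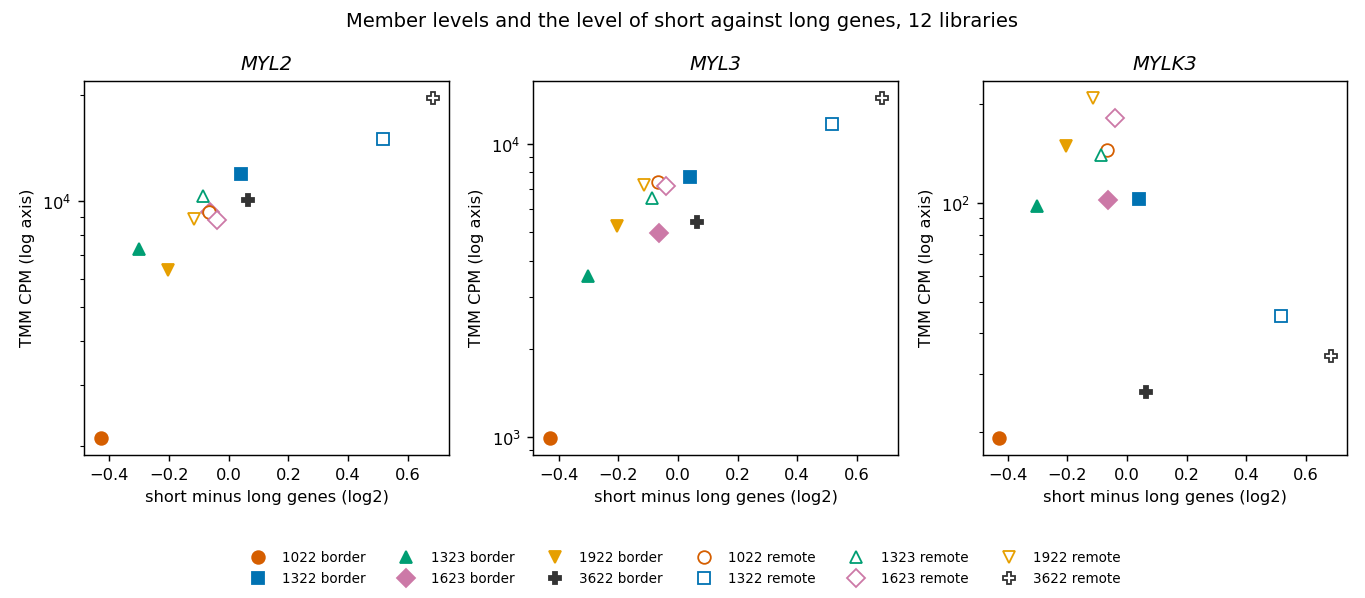
TMM-scaled CPM (log axis) of MYL2, MYL3 and MYLK3 against the level of short minus long genes (log2) in 12 libraries, with filled points for the border zone, open points for the remote zone and 1 symbol for each animal. MYL2 and MYL3 are highest in the remote zone of animals 3622 and 1322, which have the scores 0.68 and 0.52, and lowest in the border zone of animal 1022, at -0.43, while MYLK3 is low at both ends, with 34.2 and 45.1 CPM at those 2 highest scores and its lowest value, 19.2 CPM, at the lowest score.

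Over the 12 libraries, which come from 6 animals and share depth and quality within a library, the member pair most alike was MYL2 and MYL3, with a Pearson r of 0.96 between log2 CPM values. The next pair was MYH6 and MYL3, with 0.65. The genes most like MYL2 were UQCRQ (0.99), MICOS13 (0.99) and UQCR10 (0.99), and those most like MYL3 were MRPS11 (0.99), NDUFB11 (0.99) and COX6A2 (0.99), which are nuclear genes of mitochondrial proteins. Those most like MYLK3 were PM20D2 (0.99), DCAF8 (0.98) and WDTC1 (0.98). MYL4 was most like BST1 (0.95), NPPA (0.94) and TRIM72 (0.93). For MYH6 the leading genes were BRD7 (0.87), QNG1 (0.86) and PIP5K1B (0.85), for MYH7B ALS2CL (0.95), OVOL1 (0.91) and AKAP8 (0.91), and for MYL9 TUBB2B (0.91), CCL25 (0.88) and RRAS (0.87). These are descriptions of the same libraries, with no test.

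Of 18 symbols listed for other myosin subunits, 16 had an identifier and 10 were tested, of which 0 were called, with 8 values above and 2 under 0 and a median log2 fold change of 0.27. Their summed level was higher in 6 of 6 border zones, at 1067 to 2390 CPM against 909 to 1073 CPM. The lowest p were those of MYH9, the non-muscle IIA heavy chain (1.49, SE 0.45, edgeR adjusted p = 0.0824), of MYH11, the smooth muscle heavy chain (1.59, SE 0.52, edgeR adjusted p = 0.0982), and of MYH3, the embryonic heavy chain (1.50, SE 0.73, edgeR adjusted p = 0.218). MYH9 had 194 to 1284 CPM in the border zone against 101 to 190 CPM in the remote zone, so its ranges did not overlap, whereas MYH3 stayed at or under 5.50 CPM. The fast skeletal heavy chains MYH1 and MYH4 were at or under 0.245 CPM in every library. MYH9 and MYH11 are genes of non-cardiomyocytes. The fibroblast list had 10 of 10 values above 0 and 7 called in edgeR, but 1 with the block, 6 without animal 1022 and 0 without animal 1323, 1623, 1922 or 3622. The part of non-cardiomyocytes in the MYH9 and MYH11 values was not tested.

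Of 21 regulators of myosin, 17 were tested and 0 called, with 7 values above and 10 under 0 and a median of -0.23. MYLK, the smooth muscle light chain kinase and the counterpart of MYLK3, was higher in 6 of 6 border zones, as were 11.7% of all genes. It had 19.9 to 132 CPM against 12.2 to 19.4 CPM, with a log2 fold change of 1.43 (SE 0.40, edgeR adjusted p = 0.0697). MYBPC2, the fast skeletal myosin-binding protein C, was at 1.67 (SE 0.52, edgeR adjusted p = 0.0879) from levels of at most 3.48 CPM. MYOM2, an M-band protein that crosslinks thick filaments, was lower in 6 of 6 animals, at 494 to 3645 CPM against 2706 to 4132 CPM, with -0.93 (SE 0.38, edgeR adjusted p = 0.157). MYBPC3, the cardiac myosin-binding protein C, had a value of -0.51 and was lower in 5 of 6 animals.

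Of 22 genes for factors that control myosin gene transcription, 21 were tested and 0 called, with 5 values above and 16 under 0 and a median of -0.26. The lowest p were those of the cardiac transcription factors TBX5 (-0.54, SE 0.18, edgeR adjusted p = 0.105), NKX2-5 (-0.64, SE 0.23, edgeR adjusted p = 0.119) and IRX4 (-0.79, SE 0.34, edgeR adjusted p = 0.176). NKX2-5 had 74.9 to 223 CPM in the border zone against 256 to 284 CPM in the remote zone, and IRX4, a repressor of atrial genes in the ventricle, had 4.39 to 26.7 and 21.3 to 37.4 CPM. Both were lower in the border zone of 6 of 6 animals. These medians stand beside -0.41 for the 13 cardiomyocyte genes, 1.54 for smooth muscle, 2.13 for fibroblast, 1.55 for macrophage, 0.33 for pericyte, 0.16 for endothelial, 0.33 for skeletal muscle and 0.62 for conduction system markers (only 2 genes tested in each of the last 2 lists), and the part of tissue composition in them was not tested. With the animal as a block the 6 macrophage genes had values of 0.78 to 1.71. Their sum was 1150 CPM in the border zone of animal 1022, against 94.0 to 259 CPM in the other border zones.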

How the data were processed

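The authors sequenced poly(A)-enriched, nondirectional libraries as paired ends of 150 bp and aligned them to Sscrofa11.1 (Ensembl release 113) with STAR 2.7.10a, after FastQC 0.12.1 and MultiQC 1.17. They deposited raw counts of reads per gene from featureCounts 2.16.1, whose options were not given in the sources used here. Zone and animal were taken from the labels. Counts were tested with edgeR 4.0.16 in R 4.3.3 (quasi-likelihood, robust, filterByExpr, TMM, zone as the only term, Benjamini-Hochberg adjustment over all genes tested). Standard errors were derived from the F value and the log2 fold change. Log2 CPM used a prior count of 2, and ratios added 0.5 to each count. Ratios and relative levels used exact permutation of signs within animals in Python 3.11.15 with NumPy 2.4.6, pandas 2.3.3 and SciPy 1.17.1. Adjustment of the ratios covered the 6 computed, although 9 had been listed.

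Symbols were paired for 15623 of the 35682 identifiers. Lengths, positions and sequences came from RefSeq on Sscrofa11.1. The 2 libraries of a number come from 1 animal, which pairs them. Their deviations from the zone means correlated with r from -0.03 (animal 1022) to 0.57 (animal 1323), and in 4 of 6 pairs over 0.1. No library pair had counts within sampling noise (lowest chi-square 28.2 per gene).

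Named were all members, the calls, or otherwise the 3 genes with the lowest p, of the lists of other myosin subunits, myosin regulators and transcription factors, and the 3 genes most like each member. Other genes named in the text, including those of the marker lists (SLN, NPPA, SMTN) and MYBPC3, MYH1 and MYH4, were chosen after their values were seen. The members and lists were chosen with earlier results of these data known. Steps were tested on simulated data. Alternatives were the animal as a block, the Wald test of DESeq2 1.42.0, scaling by DESeq2 size factors, by library totals or by the cardiomyocyte genes, the filter dropped or set at 10 counts in each library, mitochondrial genes left out, the troponins only or the median of the cardiomyocyte genes as the reference, and each animal left out. Blocks with other scalings or without an animal were added after the data were seen.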

Additional observations from a re-analysis of the deposited data

Results flagged for a closer look

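In 40 groups of 6 libraries (each member's level, ratio and level relative to the cardiomyocyte genes, in each zone), the highest and lowest library were examined for a wide gap to their neighbour, as a share of the whole range, and 4 groups had a library set apart. Chance sets apart about 1 in 20 groups. MYH6 in the remote zone of animal 1623 was at 12.48 on the log2 CPM scale, with the next library at 11.72, and relative to the cardiomyocyte genes it was at 0.76, with the next at -0.19. MYL2 in the border zone of animal 1022 was at 11.05 on the log2 CPM scale, with the next at 12.63. The log2 ratio MYL9/MYL2 in the border zone of animal 1022 was -2.36, with the next at -3.44. That library had the highest fibroblast and the lowest cardiomyocyte marker sum, 60983 and 16479 CPM. Without animal 1623 the MYH6 mean relative to the cardiomyocyte genes was 0.51.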

How the results depend on the processing

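The count of 287 genes with an adjusted p under 0.05 was 41 with the animal as a replicate block, 1724 with the DESeq2 Wald test (over 28693 genes), 1551 with library totals (1545 higher and 6 lower), 139 with no filter, 149 with at least 10 counts in every library, 1259 with scaling to the cardiomyocyte list, and 0 to 519 with 1 animal left out. It was 0 without animal 1623 or 3622 in edgeR (2662 and 2448 genes at an unadjusted p under 0.05), 3 without animal 1323, 15 without 1922, 163 without 1022 and 519 without 1322. Library totals moved the median of all genes to 0.32 and the cardiomyocyte list to 0.84. With TMM scaling the block changed the call of no member. With scaling to the cardiomyocyte list the block left 11 genes called in all, and MYL4 was not among them.

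Of 161 alternatives for the members in the fit, 153 kept the direction and the side of the threshold. No member was called in the main fit, and some of these settings called no gene. Keeping the side of the threshold therefore says little. MYL4 passed with the cardiomyocyte list. The sign of MYH6 turned with that list (0.21, and 0.30 with the block), as did that of MYH7B (0.47, and 0.39 with the block), which also turned with library totals (0.21, and 0.080 with the block) and without animal 1322 (0.046, in a range from -0.30 without 1323).

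MYL9/MYL2 ranged from 0.59 to 1.01 with 1 animal left out and MYL3 relative to the cardiomyocyte genes from -0.66 to -0.51, both at an exact permutation p = 0.0625, the smallest that 5 animals allow. Left-out ranges that changed sign were -0.22 to 0.27 for MYLK3/MYL2 (-0.22 without 1322, -0.03 without 3622), -0.17 to 0.47 for MYH7B/MYH6 (-0.17 without 1623) and -0.33 to 0.038 for relative MYLK3 (0.038 without 1022, 0.020 without 1623). Without pairing by animal (no replicate block), the exact permutation p was 0.0130 for MYL4/MYL3 (3.12), 0.0281 for MYL3/MYL2 (-0.41), 0.0368 for relative MYL4 (2.52) and 0.0411 for relative MYL9 (0.69). Against the troponins alone MYL2 was 0.21 and MYLK3 0.29, both turned in sign, and MYL9 was 1.07. The causes were not tested. The 21 counts of MYL4 in 1 remote zone library are the lowest depth behind any ratio.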
